A study of Mus musculus with 8 samples.

Results

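The proteasome subunit genes described here are the 48 of 35976 gene symbols in the count table that consist of Psm, a letter from a to g and a number. They comprise 19 core genes (8 Psma and 11 Psmb), 24 regulatory genes (6 Psmc, 14 Psmd and 4 Psme) and 5 others, the inhibitor gene Psmf1 and the core chaperone genes Psmg1 to Psmg4. The filter on low counts left 45 of them in the test. Psma8, Psmb9 and Psme1 did not pass it and are given by their values.

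The proteasome degrades proteins that carry ubiquitin chains. Its core is a barrel of alpha rings (Psma) around beta rings (Psmb), with the peptidase sites of Psmb5, Psmb6 and Psmb7 facing the inside. The regulatory particle caps the barrel: its base holds the ATPases that unfold substrates (Psmc) and the scaffold and ubiquitin receptor subunits Psmd1, Psmd2 and Psmd4, and its lid holds Psmd14, which cuts ubiquitin chains off the substrate. Psmb8, Psmb9 and Psmb10 replace the usual peptidase subunits in cells exposed to interferon, Psmb11 does so in the thymus, and Psma8 replaces Psma7 in the male germ line. The Psme genes encode alternative activators that open the barrel without ubiquitin. In oocytes the proteasome removes proteins during meiotic maturation and after fertilisation.

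The RNA came from mouse full-grown oocytes, the ovarian oocytes that have finished growing, and its polyadenylated part was sequenced in 8 libraries, each from a pool of about 20 oocytes without zona pellucida and from 200 pg of cDNA. The 4 groups had 2 libraries apiece: Mll2 KO with its WT group, and H2A.Z DKO (double knockout as labelled) with its H2A.Z control group. H2A.Z is a histone variant encoded by H2afz and H2afv, and Mll2 (gene Kmt2b) is a histone H3 lysine 4 methyltransferase. Each mutant was compared with its own controls, and where the lines are compared, the mutation and anything else that differs between the lines cannot be told apart. The sources used here do not give strain, age, the driver of deletion or the deleted exons, and nothing in the labels says that the 2 libraries of a group came from separate animals. The p-values therefore cover the spread of these libraries alone, which may be technical.

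Library totals ran from 20309233 to 30087863 counts, and the 48 genes held 1.02% to 1.40% of each. Kmt2b was lower in both Mll2 KO libraries (8.73 and 9.27 CPM, counts scaled by library total and TMM factor) than in both WT libraries (41.9 and 42.4 CPM). H2afz went against the DKO label: control libraries had 23.9 and 29.9 CPM and DKO-labelled ones 322 and 317 CPM, and H2afv rose too (107.9 and 107.1 against 285 and 294 CPM). Directions in the H2A.Z line are therefore those of the label, and any statement that sets both lines side by side rests on it. Whether labels were exchanged cannot be settled from the sources used here. All 16 oocyte markers were detected, at a summed 21720 to 34780 CPM, and 16 granulosa and cumulus markers summed to 212.5 to 376 CPM. By library, the granulosa sum was 332 and 314 CPM (H2A.Z control), 359 and 376 CPM (H2A.Z DKO), 260.3 and 249.5 CPM (Mll2 WT) and 231 and 212.5 CPM (Mll2 KO). Most of this sum was Esr2 and Cyp19a1, and single markers moved apart from it. Of the 12 granulosa markers tested, 3 were called higher and 2 lower under the DKO label, and 4 higher and 3 lower in Mll2 KO, with median log2 differences of -0.01 and 1.47. Fshr, the receptor gene for follicle-stimulating hormone, rose in both comparisons, from 1.29 and 0.597 CPM to 18.7 and 18.9 CPM under the DKO label and from 0.991 and 0.593 CPM to 7.24 and 7.69 CPM in Mll2 KO. The 13 blood, immune and endothelial markers summed to 25.9 and 26.6 CPM in H2A.Z control libraries against 41.6 and 42.0 CPM in DKO-labelled ones, and to 39.7 and 40.2 CPM for Mll2 WT against 39.3 and 49.6 CPM for KO. The 10 theca and stroma markers summed to 14.3 and 16.2 CPM against 27.4 and 24.1 CPM in the H2A.Z line, and to 9.05 and 10.2 CPM against 9.37 and 10.2 CPM in the Mll2 line. H2-Aa, Pecam1 and Cyp11a1 were called higher under the DKO label, Kdr and Dcn higher and Star lower in Mll2 KO, while Hbb-bs, Hba-a1, Cdh5 and Col3a1 had no counts in any library. The part of these cell types in the results below was not tested. In such pools, fewer cells of a type and less RNA per cell cannot be told apart.

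Start regions are shown for 4 members named in the comparisons below. Psme2 and Psmb10 had the largest decreases, and Psmb5 was the constitutive catalytic gene with the largest increase under the DKO label. Psmc1 was one of the ATPase genes that fell in Mll2 KO, and its call did not hold in every alternative fit. The sequences are from RefSeq on GRCm38.p6 (mm10), given 5′ to 3′ on the strand of the gene and end before the first transcript start annotated by RefSeq or GENCODE. Match positions are counted back from the end of the stretch shown to the first base of the match. Capitals mark a match to 1 of 3 motifs searched on both strands: the antioxidant response element core TGACNNNGC, the NF-Y box CCAAT and the GC box GGGCGG. Psme2 (chr14:55591114-55591351, minus strand) has a GC box on the opposite strand, 55 bases before that end. Psmb10 (chr8:105938445-105938642, minus strand) has no match in the stretch shown. Psmb5 (chr14:54618023-54618245, minus strand) has an antioxidant response element core 20 bases before that end, and the same letters hold the TGACG of a cyclic AMP response element. Psmc1 (chr12:100109952-100110153, plus strand) has an NF-Y box 127 bases before that end.
Psme2: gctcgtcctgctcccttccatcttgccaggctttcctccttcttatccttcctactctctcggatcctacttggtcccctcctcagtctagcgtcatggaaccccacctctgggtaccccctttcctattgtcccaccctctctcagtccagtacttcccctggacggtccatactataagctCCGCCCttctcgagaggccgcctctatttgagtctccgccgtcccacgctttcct
Psmb10: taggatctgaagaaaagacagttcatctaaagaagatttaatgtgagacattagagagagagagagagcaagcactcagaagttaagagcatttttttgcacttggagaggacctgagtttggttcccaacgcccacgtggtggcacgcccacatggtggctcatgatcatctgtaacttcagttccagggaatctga
Psmb5: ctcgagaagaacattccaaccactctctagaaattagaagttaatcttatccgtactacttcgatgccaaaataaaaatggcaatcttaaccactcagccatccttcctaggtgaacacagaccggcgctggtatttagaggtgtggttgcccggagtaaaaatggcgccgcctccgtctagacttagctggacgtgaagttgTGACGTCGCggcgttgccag
Psmc1: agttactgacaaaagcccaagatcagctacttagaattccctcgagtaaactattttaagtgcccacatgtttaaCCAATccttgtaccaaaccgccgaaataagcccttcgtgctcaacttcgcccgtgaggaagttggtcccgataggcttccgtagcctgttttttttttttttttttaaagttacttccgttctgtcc

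RefSeq start windows of 300 bases were matched for 40 of the 48 members (43 windows). The antioxidant response element core, bound by NRF1 and NRF2, was in 14.0% of members' windows and in 12.4% of all 32851 windows. The NF-Y box was in 32.6% and 37.4%, and the GC box in 55.8% and 35.7%. Among the 10 windows of members called higher under the DKO label, 4 held the antioxidant response element core (Psmb5, Psmb6, Psmd9 and Psme4), against 2 of 27 windows of members not past that test. Psmb1, Psmd3 and Psmd7 were also called higher but had no window matched. The calls of Psmb6 and Psmd9 did not hold in every alternative fit, as given below. The median ratio of observed to expected CpG was 0.734 in members' windows and 0.384 in all windows. It was 0.794 for the 34 matched constitutive members and 0.523 for the 6 tissue-restricted or interferon-inducible ones, with 0.192 for Psmb10 and 0.165 for Psmb11. A match describes letters in a window and not a bound site.

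Levels of different genes were compared as CPM per kilobase of annotated transcript. Psma7, an alpha ring gene, was highest in each of the 4 groups, at 1291 CPM per kb (H2A.Z control), 1519 (H2A.Z DKO), 1043 (Mll2 WT) and 1127 (Mll2 KO). The beta ring genes Psmb2 and Psmb6 took the next places in every group, with 992 and 991 CPM per kb in the H2A.Z controls, a difference within the spread of the 2 libraries. The highest regulatory genes were the ATPase gene Psmc5 (436 CPM per kb in the H2A.Z controls) and the ubiquitin receptor gene Psmd4 (434 CPM per kb). Transcripts of subunits that the particle holds in equal numbers lay far apart on this scale. The catalytic gene Psmb5 had 45.8 CPM per kb in the H2A.Z controls, from 4.18% to 6.96% of the level of the catalytic gene Psmb6 over the 8 libraries. The lid gene Psmd3 was lower still, at 9.84 CPM per kb in the H2A.Z controls, and the lid gene Psmd13 lowest of the constitutive subunit genes, at 1.03 CPM per kb in Mll2 WT. The values of several members, among them Psmd13 and Psmb5, depend on how reads were assigned. Psmd13 overlaps Sirt3 on the opposite strand by 342 bases and whether counting used strand is not stated. Psmb5 has a processed pseudogene with 98.9% identity over 796 bases that is not a row of the table. Other members have such copies too, among them Psma3 (100% over 665 bases) and Psma5 (98.6% over 952 bases). For Psmb3 and Psmc1 the identities reached 97.1% over 615 and 728 bases. Results for these genes below carry the same limit.

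**Figure D1:**
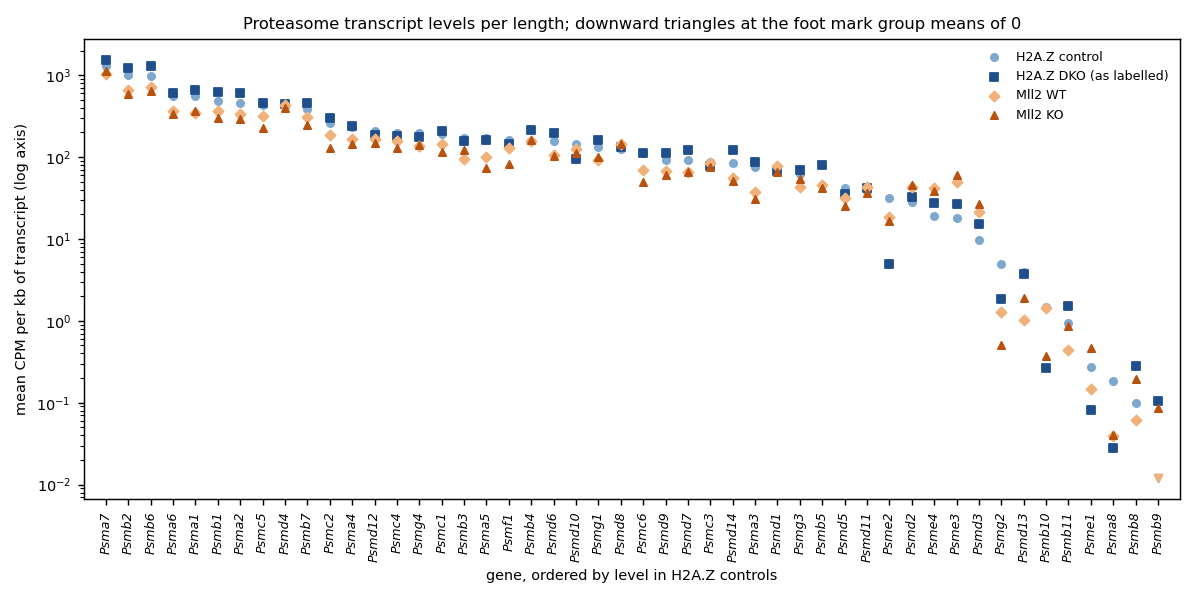
Mean CPM per kilobase of transcript (log axis) for the 48 genes in each of the 4 groups, ordered by the level in H2A.Z controls. Psma7 is highest in every group, most subunit genes lie above 10 CPM per kb, and the restricted genes Psmb10, Psmb11, Psma8, Psmb8 and Psmb9 with Psme1 form the low end.

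The restricted core genes had low levels, and Psma8, Psmb8 and Psmb9 were at or near the limit of detection. Psmb9 had 0 counts in both H2A.Z controls and both Mll2 WT libraries and 1 to 5 counts in the 4 mutant libraries, where a count of 0 allows up to 3 counts. Psma8 had 0 to 9 counts and Psmb8 2 to 12 counts per library. Psmb8 reached at most 0.693% of the level of its constitutive counterpart Psmb5 per length, and Psma8 at most 0.0165% of that of Psma7. Psmb11, the thymic peptidase gene that lies beside Psmb5 on chromosome 14, had 42 to 172 counts per library. Psmb10 had 7 to 61 counts and reached at most 0.537% of the level of Psmb7 per length. In every library Psmb5, Psmb6 and Psmb7 were above Psmb8, Psmb9 and Psmb10 on this scale.

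The comparison of the libraries labelled DKO with H2A.Z controls asks which transcripts change with a double knockout of the H2A.Z genes. Of the 45 proteasome genes tested, 17 passed an adjusted p of 0.05 (37.8%), against 30.9% of all 16847 genes tested. Of these, 13 rose (28.9%) and 4 fell (8.89%), against 19.4% and 11.5% of all genes. Psme2 and Psmb10, whose products belong to the interferon-inducible forms, fell most. The peptidase gene Psmb5, the deubiquitinase gene Psmd14 and the activator genes Psme3 and Psme4 were among those that rose. Of the 17 core genes tested, 5 rose and 1 fell, with a median log2 difference of 0.26. Of the 23 regulatory genes tested, 7 rose and 2 fell, with a median of 0.07. The median over all genes tested was 0.12 with the TMM scaling used here and 0.002 with library totals alone, so the core median lay 0.14 above and the regulatory median just below it. With library totals alone the regulatory median was -0.05 and 8 members, not 13, rose. The number that rose was 6 without any 1 of the H2A.Z line libraries or Mll2 WT 2, and the number that fell was 12 with the line fitted alone and 11 without Mll2 KO 1 or KO 2.

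**Figure D2:**
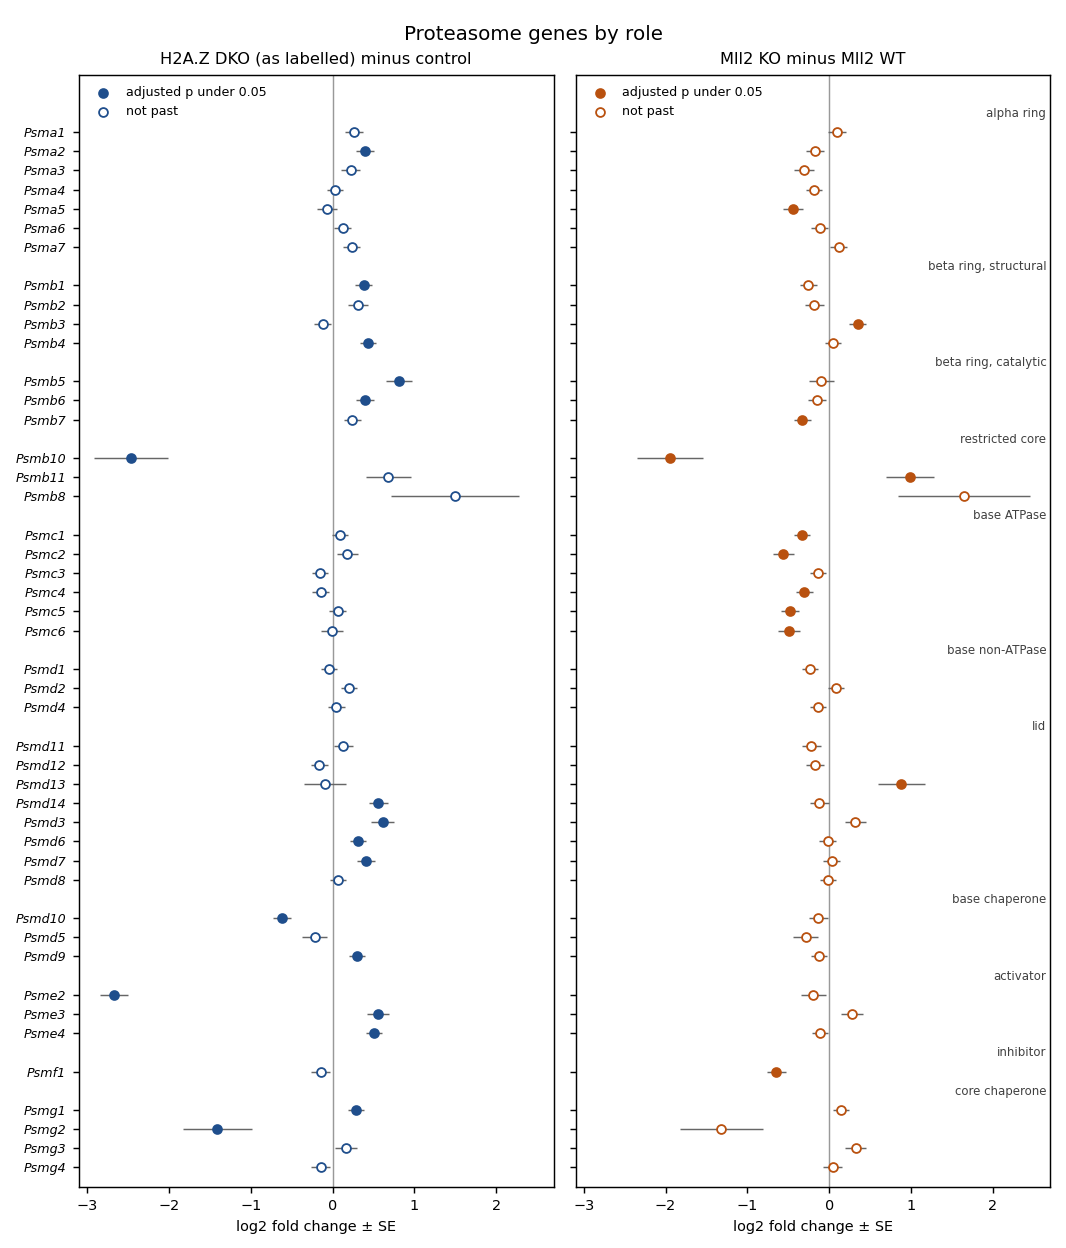
Log2 fold change ± SE of the 45 tested proteasome genes by role, in the H2A.Z line (left) and the Mll2 line (right); filled points passed an adjusted p of 0.05. Psme2 (log2 -2.67) and Psmb10 (log2 -2.46) lie far to the left in the H2A.Z line, and 5 of 6 ATPase genes are filled and left of 0 in the Mll2 line.

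Among the activators, Psme2 measured 32.6 and 27.7 CPM in control libraries against 4.43 and 5.03 CPM in DKO-labelled ones. Both were far below both controls, a log2 difference of -2.67 ± 0.17 (SE), or 6.36-fold lower (edgeR quasi-likelihood test, adjusted p = 1.04e-07). Psme2 encodes the beta chain of an activator ring that is induced by interferon and is built with the product of Psme1. Its near-identical copy Psme2b (99.4% identity over 794 bases) had 2 to 29 counts, and both genes summed to 33.0 and 28.3 CPM in control libraries against 4.52 and 5.41 CPM in DKO-labelled ones. The partner gene Psme1 (chromosome 14, 55578123 to 55581529), next to Psme2 (55587441 to 55591113), had only 1 to 24 counts per library and at most 0.809 CPM.

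The other activator genes went the opposite way. Psme3, the gene of a nuclear activator that works without ATP, had 47.3 and 49.98 CPM in control libraries against 74.0 and 68.9 CPM in DKO-labelled ones (log2 0.56 ± 0.13, adjusted p = 0.0055). Psme4, the gene of a large activator linked to the breakdown of acetylated histones, had 129.6 and 119 CPM against 179 and 175 CPM (log2 0.51 ± 0.10, adjusted p = 0.0013). In both genes the 2 libraries labelled DKO stood above both controls. The call of Psme3 did not hold without H2A.Z control 1 or DKO 1 (adjusted p = 0.0594 and 0.0607).

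Of the restricted core genes, Psmb10 had 1.91 CPM in each H2A.Z control and 0.310 and 0.379 CPM in the DKO-labelled ones. That is 37 and 48 counts against 7 and 8, a log2 difference of -2.46 ± 0.45 (adjusted p = 0.000825), with no overlap. Psmb11 measured 3.57 and 4.38 CPM in control libraries against 7.63 and 5.17 CPM in DKO-labelled ones, and its log2 difference of 0.68 ± 0.28 was not past the threshold (adjusted p = 0.0745). Psmb8, with 0.207 and 0.119 CPM against 0.532 and 0.379 CPM, did not pass either (adjusted p = 0.163). Of the 3 interferon-inducible peptidase genes, Psmb10 passed the test, Psmb8 did not, and Psmb9 was not tested.

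Among the constitutive peptidase genes, Psmb5 (chromosome 14, 54614119 to 54618022), whose product cuts after hydrophobic residues, had 37.6 and 44.8 CPM in control libraries against 69.7 and 74.8 CPM in DKO-labelled ones. The log2 difference was 0.81 ± 0.15, or 1.75-fold higher (adjusted p = 0.00113), with both labelled DKO libraries above both controls. Psmb6, whose product cuts after acidic residues, had 797 and 785 CPM against 1012 and 1067 CPM (log2 0.39 ± 0.11, adjusted p = 0.0105). Psmb7, whose product cuts after basic residues, had 462 and 445 CPM against 509 and 562 CPM, which did not pass (log2 0.24, adjusted p = 0.1). The level of Psmb5 per length relative to Psmb6 went from 4.18% and 5.06% to 6.11% and 6.23%. The call of Psmb6 was lost without any 1 of the 4 H2A.Z line libraries or Mll2 WT 2 (adjusted p from 0.0554 to 0.103).

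Of the other core genes, the beta ring gene Psmb4 had 189 and 186 CPM in control libraries against 246 and 261 CPM in DKO-labelled ones (log2 0.43 ± 0.10, adjusted p = 0.003). The alpha ring gene Psma2 had 1399 and 1263 CPM against 1719 and 1789 CPM (log2 0.40 ± 0.11, adjusted p = 0.0139). Psmb1, another beta ring gene, rose by log2 0.38 ± 0.11 (adjusted p = 0.0125). Both labelled DKO libraries were above both controls in each of these genes. The remaining 6 constitutive alpha ring genes did not pass, with log2 differences from -0.07 (Psma5) to 0.26 (Psma1), and neither did the beta ring genes Psmb2 (0.31) and Psmb3 (-0.12). The call of Psma2 ended without DKO 1, DKO 2, Mll2 WT 2 or H2A.Z control 2 (adjusted p from 0.0718 to 0.164), and that of Psmb1 without the same 4 libraries (0.0683 to 0.152) or with library totals alone (0.055).

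In the regulatory particle, 4 of 8 lid genes rose, against 19.4% of all genes. Psmd14, the gene of the deubiquitinase that frees substrates from their chains, had 129.2 and 128.2 CPM in control libraries against 191 and 187 CPM in DKO-labelled ones (log2 0.56 ± 0.11, adjusted p = 0.00196). The lid gene Psmd3 had 19.2 and 23.1 CPM against 32.2 and 32.5 CPM (log2 0.61 ± 0.14, adjusted p = 0.00362), and the lid gene Psmd7 had 141 and 147 CPM against 186 and 196 CPM (log2 0.41 ± 0.11, adjusted p = 0.00905). In each of them the groups did not overlap. Psmd6 rose by log2 0.31 ± 0.10 (adjusted p = 0.0301). The other lid genes, Psmd8, Psmd11, Psmd12 and Psmd13, had log2 differences from -0.16 to 0.13 and did not pass. The call of Psmd3 was lost without H2A.Z control 1 (adjusted p = 0.0681). That of Psmd7 ended without DKO 2, H2A.Z control 1 or 2 or Mll2 WT 2 (0.0579 to 0.087) and with library totals alone (0.0552), and that of Psmd6 without any 1 of the H2A.Z line or Mll2 WT libraries (0.0514 to 0.213), with RLE scaling (0.0512), in DESeq2 (0.0541) and with library totals alone (0.165).

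None of the 6 ATPase genes of the base was past the threshold under the DKO label, against 30.9% of all genes tested. Their log2 differences ran from -0.16 (Psmc3) to 0.18 (Psmc2). The scaffold and receptor genes Psmd1, Psmd2 and Psmd4 had log2 differences of -0.05, 0.20 and 0.05 and did not pass. Psmd10, the gene of gankyrin, a chaperone of base assembly, had 211 and 204 CPM in control libraries against 134 and 136 CPM in DKO-labelled ones. The labelled DKO libraries were below both controls (log2 -0.62 ± 0.11, 1.54-fold lower, adjusted p = 0.000787). Atg4a, an autophagy protease gene that starts 179 bases away on the other strand, measured 16.4 and 15.9 CPM in control libraries against 9.40 and 6.83 CPM in DKO-labelled ones (log2 -0.99 ± 0.21, adjusted p = 0.00228). Other members, among them Psme2 and Psmg2, also have such a neighbour. Apart from Dnajc2 beside Psmc2, given below, these neighbours are not reported here. The base chaperone gene Psmd9 had a log2 difference of 0.30 ± 0.10 (adjusted p = 0.0304), and Psmd5 one of -0.22 that did not pass. The call of Psmd9 was lost without any 1 of the 8 libraries. It was also lost with RLE scaling (adjusted p = 0.0538), in DESeq2 (0.0539), with a replicate block (0.0515) and with library totals alone (0.189).

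Of the core chaperones, Psmg2 had 4.86 and 5.69 CPM in control libraries against 2.35 and 1.61 CPM in DKO-labelled ones (log2 -1.41 ± 0.42, adjusted p = 0.0194). Its partner gene Psmg1 went the other way, with 143 and 138 CPM against 167 and 175 CPM (log2 0.29 ± 0.10, adjusted p = 0.0387). The call of Psmg2 was lost without any 1 of the 4 H2A.Z line libraries (adjusted p from 0.0609 to 0.157). That of Psmg1 was lost under each of the 14 alternatives (0.0529 to 0.29). Psmg3 and Psmg4, the other core chaperone genes, and the inhibitor gene Psmf1 did not pass. Calls that held under all 14 alternatives in the H2A.Z line were those of Psme2, Psmb10, Psmd10, Psmb4, Psmb5, Psmd14 and Psme4.

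**Figure D3:**
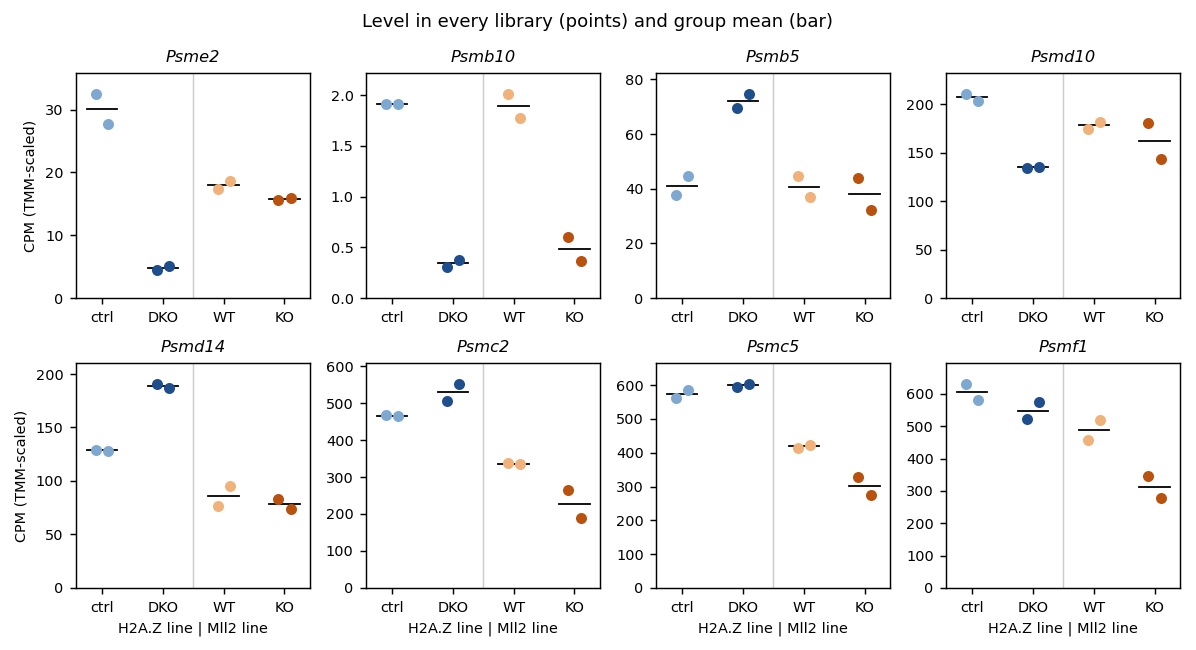
CPM of 8 members in every library (points) with the mean of the 2 libraries (bar), for the H2A.Z line and the Mll2 line. Psme2, Psmd10, Psmb5 and Psmd14 separate in the H2A.Z line, Psmc2, Psmc5 and Psmf1 in the Mll2 line, and Psmb10 in both.

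The comparison of Mll2 KO with Mll2 WT asks which transcripts differ without this methyltransferase. Of the 45 proteasome genes tested, 12 passed (26.7%), against 30.6% of all genes. Of these, 3 rose (6.67%) and 9 fell (20.0%), against 14.4% and 16.2% of all genes. The genes that fell were 5 of the 6 ATPase genes, the inhibitor gene Psmf1, the alpha ring gene Psma5 and the beta ring genes Psmb7 and Psmb10. Those that rose were Psmb3, Psmb11 and Psmd13. Of the 17 core genes tested, 2 rose and 3 fell (median log2 -0.15), and of the 23 regulatory genes, 1 rose and 5 fell (median log2 -0.14). The median over all genes tested was 0.02, and 0.14 with library totals alone, where the core and regulatory medians were -0.03 and -0.02. With library totals alone 7 members rose. With the Mll2 line fitted alone, 1 member rose (Psmb11) and 4 fell (Psmb10, Psmc2, Psmc5 and Psmf1).

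The ATPase genes encode the ring that unfolds substrates and threads them into the barrel. Psmc2 (chromosome 5, 21785283 to 21803787) had 337 and 335 CPM for WT against 266 and 189.5 CPM for KO. Both KO libraries were lower, and KO 2 more so (log2 -0.56 ± 0.13, adjusted p = 0.00434). Psmc5 (chromosome 11, 106256154 to 106263120) had 416 and 424 CPM against 327 and 274 CPM (log2 -0.48 ± 0.11, adjusted p = 0.00305), and Psmc6 had 142.5 and 169.6 CPM against 129 and 93.0 CPM (log2 -0.49 ± 0.14, adjusted p = 0.0128). Psmc1, with 231 and 233 CPM against 194 and 175 CPM, fell by 0.33 on the log2 scale (adjusted p = 0.0181). Psmc4 had 218.5 and 234 CPM against 199 and 168 CPM (log2 -0.30 ± 0.11, adjusted p = 0.0397), and Psmc3, with 139 and 136 CPM against 122 and 127 CPM, did not pass (log2 -0.14, adjusted p = 0.285). In all 6 genes both KO libraries were below both WT libraries. The share of all genes separated in this way was not counted, so the separation of Psmc3 adds nothing to its test. Dnajc2, a chaperone gene that starts 32 bases from Psmc2 on the other strand, was not past the threshold in Mll2 KO (log2 -0.12, adjusted p = 0.39).

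The calls of Psmc2 and Psmc5 held under all 14 alternatives. Leaving out Mll2 WT 2 ended those of Psmc6 (adjusted p = 0.109), Psmc1 (0.07) and Psmc4 (0.172). Without Mll2 WT 1 those of Psmc1 (0.0881) and Psmc4 (0.087) were also lost, and that of Psmc4 also without Mll2 KO 2 or any 1 H2A.Z line library (0.0578 to 0.0679). With library totals alone Psmc1 and Psmc4 did not pass (0.101 and 0.176). The base genes beside the ATPases, Psmd1, Psmd2 and Psmd4, had log2 differences of -0.24, 0.08 and -0.14 and did not pass.

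Psmf1 encodes PI31, an inhibitor of the isolated core that also takes part in proteasome transport. It had 459 and 519 CPM for WT against 346 and 278 CPM for KO, with no overlap (log2 -0.65 ± 0.12, 1.56-fold lower, adjusted p = 0.000854), and its call held under all 14 alternatives. Psmb10 had 2.02 and 1.78 CPM in WT against 0.606 and 0.369 CPM in KO, or 61 and 54 counts against 18 and 11 (log2 -1.95 ± 0.40, adjusted p = 0.00193). With directions as labelled, Psmb10 was the 1 member that fell past the threshold in both lines, under all alternatives in each. H2afz and H2afv go against the DKO label, and with that label turned Psmb10 would differ in opposite directions in the lines. Psmb7, its constitutive counterpart, had 332 and 384 CPM against 297.5 and 273 CPM (log2 -0.33 ± 0.11, adjusted p = 0.0296). The alpha ring gene Psma5 had 119 and 130.5 CPM against 104.5 and 79.1 CPM (log2 -0.45 ± 0.13, adjusted p = 0.0146). The call of Psma5 was lost without Mll2 WT 2 (0.0898), and that of Psmb7 without Mll2 WT 2 (0.215), any 1 H2A.Z line library (0.0507 to 0.0512) or with library totals alone (0.115).

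The members that rose in Mll2 KO were from different parts of the particle. Psmb3, a beta ring gene, had 74.5 and 72.1 CPM in WT against 98.9 and 87.6 CPM in KO (log2 0.35 ± 0.10, adjusted p = 0.0194). The thymic gene Psmb11 had 2.31 and 1.38 CPM against 3.71 and 3.63 CPM (log2 0.99 ± 0.29, adjusted p = 0.0187). The lid gene Psmd13 had 2.21 and 1.88 CPM against 4.82 and 2.72 CPM (log2 0.88 ± 0.29, adjusted p = 0.0283), while the overlapping Sirt3 was not past the threshold (log2 0.17). In the 3 genes both KO libraries were above both WT libraries. Leaving out Mll2 WT 2 ended the calls of Psmb3 (adjusted p = 0.154), Psmb11 (0.225) and Psmd13 (0.184). Psmb3 and Psmd13 were also lost without Mll2 WT 1 (0.0885 and 0.0738), and Psmd13 without Mll2 KO 1 (0.26).

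Apart from Psmb10, the members with calls under all alternatives in the H2A.Z line did not pass in Mll2 KO, and neither did Psme3. Psme2 had 17.4 and 18.7 CPM in WT against 15.6 and 15.9 CPM in KO (log2 -0.20 ± 0.16, adjusted p = 0.357). Psmb5 had 44.5 and 36.9 CPM against 43.9 and 32.1 CPM (log2 -0.10, adjusted p = 0.661), with overlapping groups. Psmd10 had 175 and 182 CPM against 181 and 144 CPM (log2 -0.13, adjusted p = 0.389), Psme3 126.2 and 136 CPM against 134 and 183 CPM (log2 0.28, adjusted p = 0.116), and Psme4 272 and 275 CPM against 243 and 262 CPM (log2 -0.11, adjusted p = 0.395). Over all members, KO 2 was below KO 1 in the summed level (8986 and 10220 CPM) while the 2 WT libraries had 10600 and 10830 CPM. Without KO 1, 18 members fell and not 9, and without WT 2, 4 fell and none rose.

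The difference between the mutant effects was tested directly. It passed in 16 of 45 members (35.6%), against 19.5% of all genes tested. It was positive, meaning a higher effect in the H2A.Z line, in 13 members and negative in 3, against 12.9% and 6.68% of all genes. With directions as labelled, Psme2 had the largest difference (log2 -2.47 ± 0.23, adjusted p = 3.37e-06) and was the 1 member past the threshold under all alternatives. Psmb5 (0.91), Psmc2 (0.74) and Psmd14 (0.68) had the largest positive differences. Psmb10, lower in the DKO-labelled and the Mll2 KO libraries, had a difference of -0.51 ± 0.62 that did not pass (adjusted p = 0.609). With library totals alone 4 members passed, all of them negative (Psme2, Psmd10, Psmb3 and Psmd13), and none of the 13 positive calls did. The signs, the split and the order rest on the DKO label, which H2afz and H2afv go against, and a test with the H2A.Z direction turned was not made.

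Ratios of summed CPM within a library do not depend on the scaling between libraries. The core to regulatory ratio was 1.59 and 1.53 in the H2A.Z controls and 1.78 and 1.86 under the DKO label. In the Mll2 line it was 1.25 and 1.27 for WT and 1.37 and 1.32 for KO. The DKO-labelled and the Mll2 KO libraries each lay above their controls without overlap, and the H2A.Z line lay above the Mll2 line. Genes with high counts weigh most in such sums. The median log2 differences of core and regulatory genes were 0.26 and 0.07 under the DKO label but -0.15 and -0.14 in Mll2 KO. The ratio of ATPase (Psmc) to alpha (Psma) transcripts was lower in the DKO-labelled and in the Mll2 KO libraries: 0.442 and 0.470 against 0.397 and 0.393 in the H2A.Z line, and 0.477 and 0.481 against 0.381 and 0.365 in the Mll2 line. The ratio of beta (Psmb) to alpha transcripts was 0.737 and 0.748 (H2A.Z control) against 0.788 and 0.790 (H2A.Z DKO), but 0.775 and 0.777 in Mll2 WT and 0.714 in both Mll2 KO libraries. The lid to alpha ratio was 0.267 and 0.281 in H2A.Z control libraries against 0.266 and 0.25 in DKO-labelled ones, and it overlapped in the Mll2 line (0.339 and 0.328 against 0.328 and 0.332). Which ratios move the same way in both lines rests on the DKO label, and with it turned the first 2 would go opposite ways. These ratios were not tested.

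**Figure D4:**
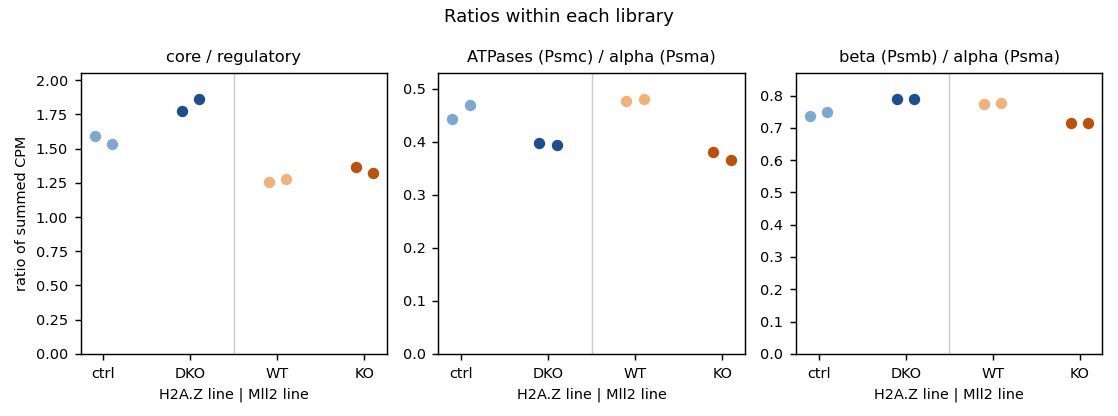
Ratio of summed CPM within each library for core to regulatory genes, for ATPase (Psmc) to alpha (Psma) genes and for beta (Psmb) to alpha genes; axes start at 0. As labelled, DKO and KO libraries lie above their controls in the first ratio and below them in the second, and go in opposite directions in the third.

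Genes that work with the proteasome were described from lists, by their counts. For each list below, the share of all genes called was 30.9% under the DKO label (19.4% higher and 11.5% lower) and 30.6% in Mll2 KO (14.4% higher and 16.2% lower). Of 7 genes for bound subunits and partners, 3 were higher and 1 was lower in the libraries labelled DKO (median log2 0.35) and 1 fell in Mll2 KO (median log2 -0.03). Shfm1, a small lid subunit gene outside the Psm names, had 466 and 434 CPM in control libraries against 611 and 644 CPM in DKO-labelled ones (log2 0.48 ± 0.10, adjusted p = 0.00261, and 0.0544 without H2A.Z control 2). The ubiquitin receptor gene Adrm1 and AI314180, the gene of a proteasome scaffold, rose by log2 0.43 and 0.49. Usp14, the gene of a proteasome-bound deubiquitinase, was lower in both lines as labelled (log2 -0.43, adjusted p = 0.02, and log2 -0.40, adjusted p = 0.0297). With library totals alone Adrm1 under the DKO label (adjusted p = 0.0815) and Usp14 in Mll2 KO (0.0999) did not pass. Usp14 also did not pass with the Mll2 line fitted alone (0.107). Calls ended without H2A.Z control 1, DKO 1, DKO 2 or Mll2 WT 2 for Adrm1 (0.0728 to 0.162), without H2A.Z control 2 or DKO 1 for AI314180 (0.0684 and 0.0634), without any 1 of the H2A.Z line libraries for Usp14 under the DKO label (0.0531 to 0.173), and without DKO 1 or 2, Mll2 WT 1 or 2 or Mll2 KO 2 for Usp14 in Mll2 KO (0.0508 to 0.105).

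Under the DKO label 5 of 12 assembly and import genes were called higher and 2 lower, and in Mll2 KO 2 were called lower. This list holds the members Psmg1 to Psmg4, Psmd5, Psmd9 and Psmd10. Hspb1, a small heat shock protein gene, went from 3.67 and 5.22 CPM to 16.8 and 14.5 CPM under the DKO label (log2 1.80, adjusted p = 6.33e-05) and from 3.37 and 4.94 CPM to 0.404 and 0.369 CPM in Mll2 KO (log2 -3.41, adjusted p = 2.07e-06). Of 12 tested genes for the control of proteasome genes by NRF1, the libraries labelled DKO had 4 higher and 3 lower, and Mll2 KO had 3 higher and 2 lower. Under the DKO label Nfe2l2 was among the higher genes and Bach1 and Keap1 among the lower. Each had a smaller p there than Nfe2l1 and Ngly1, and none of their calls held under all alternatives. Nfe2l1, the gene of NRF1 itself, had 27.3 and 29.8 CPM in control libraries against 38.6 and 41.9 CPM in DKO-labelled ones (log2 0.49 ± 0.14, adjusted p = 0.0148). Whether the call of Nfe2l1 held under the alternatives was not examined. In Mll2 KO its log2 difference of 0.31 did not pass (adjusted p = 0.0902). Ngly1, the deglycosylase gene needed for NRF1 activation, was lower in both lines as labelled (log2 -0.39, adjusted p = 0.0126, and log2 -0.59, adjusted p = 0.000745). The first of these calls ended without DKO 1 or 2 or H2A.Z control 1 (0.0512 to 0.153).

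Of 16 shuttle and segregase genes, 6 rose and 1 fell in each line as labelled (43.8% called, against 30.9% and 30.6% of all genes). Of the 6 ubiquitin and activating enzyme genes, 2 rose under the DKO label, and 2 rose and 1 fell in Mll2 KO. Ubb, a polyubiquitin gene, had 1511 and 1631 CPM for WT against 900.0 and 713 CPM for KO (log2 -0.96 ± 0.12, adjusted p = 3.26e-05). Of 5 tested genes for antigen processing and interferon, 2 rose under the DKO label (Tap2 and B2m), and B2m fell in Mll2 KO. The call of Tap2 ended without DKO 1, H2A.Z control 1 or 2 or Mll2 WT 2 (0.0565 to 0.367) and in DESeq2 (0.0567), and B2m in Mll2 KO without Mll2 WT 2 (0.0544). The CCT chaperonin, a ring complex of similar size, had 2 of 8 genes higher and none lower under the DKO label (median log2 0.03), and 2 higher and 2 lower in Mll2 KO (median log2 -0.20).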

How the data were processed

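The authors deposited 1 table of raw counts, whole numbers for 35976 gene symbols in 8 libraries, with no normalisation. The tools named in the submitters' processing notes are RSEM 1.3.1, STAR 2.7.3 and Trim Galore 0.6.4, and the build is mm10. The sources used here do not state the annotation, the strand setting or whether estimated counts were rounded. Samples were grouped by their labels and none was left out.

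The test was edgeR 4.0.16 under R 4.3.3. A single fit with 4 group means held all 8 libraries, genes were filtered with filterByExpr by group (16847 of 35976 kept), scaled with TMM factors, and tested by the robust quasi-likelihood test with Benjamini-Hochberg adjustment over all genes tested, at a threshold of 0.05. Contrasts were each mutant minus its own controls and the difference between them. Standard errors were derived from the quasi-likelihood F statistic. CPM are counts over the product of library total and TMM factor. On simulated counts the fit was tested for recovery of known changes. Replicate numbers were not treated as pairs, since the labels name no shared origin and same-numbered libraries did not deviate together (correlations of 0.0395 and -0.0221 across genes). Alternatives were RLE scaling, library totals alone, no low-count filter, DESeq2 1.42.0, each line fitted alone, a replicate block, and each library left out.

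Transcript lengths and positions came from GENCODE M21 and start windows from RefSeq, both on GRCm38. Copies were searched with BLAST 2.17.0. Ratios, sums and medians are descriptions with no test. How many of all genes have groups that do not overlap was not counted, so statements of no overlap describe single genes. The members and gene lists were chosen with earlier results of these data known. Any member could be named. Values in every library are given for the called members with the largest changes, the restricted members, their counterparts, Psme3, Psme4 and Psmf1. Up to 4 called genes per list and comparison are named, mostly in order of p. Nfe2l1 was named out of that order. Results for some genes of these lists are not reported here. Protein sequences were not analysed here.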

Additional observations from a re-analysis of the deposited data

Results flagged for a closer look

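The direct test of the difference between the effects in the H2A.Z and Mll2 lines (log2, H2A.Z line minus Mll2 line, with directions as labelled) passed in 16 members. Psme2 stood apart, with -2.47. The core genes Psmb5 (0.91), Psmb1 (0.64), Psma2 (0.58), Psmb7 (0.57), Psmb6 (0.54) and Psma3 (0.52) had higher values in the H2A.Z line, and Psmb3 (-0.47) a lower one. Among regulatory genes, the ATPase genes Psmc2 (0.74), Psmc5 (0.54) and Psmc1 (0.42), the lid gene Psmd14 (0.68), the activator gene Psme4 (0.62) and the base chaperone gene Psmd9 (0.43) were higher, and the base chaperone gene Psmd10 (-0.49) was lower. The inhibitor gene Psmf1 had a difference of 0.50. The count fell to 7 without H2A.Z control 1, 3 without H2A.Z control 2, 7 without DKO 1, 5 without DKO 2, 8 without Mll2 WT 1 and 4 without Mll2 WT 2, and was 21 without Mll2 KO 1 and 16 without Mll2 KO 2.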

How the results depend on the processing

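Medians are log2, and the reported value follows the word for. In the H2A.Z line, library totals alone gave 8 members higher for 13, 4 regulatory ones for 7, a core median of 0.14 for 0.26 and a regulatory median of -0.053 for 0.071. Fitting that line alone gave 12 lower for 4 (3 core for 1, 6 regulatory for 2), with medians of 0.128 and -0.055. In the Mll2 line, library totals alone gave 7 higher for 3, of them 3 regulatory for 1, with 3 regulatory lower for 5 and medians of -0.029 for -0.15 (core) and -0.018 for -0.14 (regulatory). Fitting the Mll2 line alone gave 1 higher and 4 lower for 3 and 9, with 1 core gene higher, 1 core gene lower, 0 regulatory genes higher and 2 lower. Without the low-count filter 5 core genes and not 3 were lower in Mll2 KO. The difference between the lines passed in 4 members with library totals alone, for 16. RLE scaling and DESeq2 gave the same member calls as each other: 14, 12 and 12 in the H2A.Z, Mll2 and difference tests for 17, 12 and 16.

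Leaving out 1 library at a time gave 6 to 12 members higher and 3 to 11 lower in the H2A.Z line, with 2 to 6 core genes higher and 1 to 2 lower, 2 to 6 regulatory genes higher and 2 to 6 lower, and medians from 0.14 to 0.32 (core) and from -0.056 to 0.083 (regulatory). In the Mll2 line it gave 0 to 4 higher and 4 to 18 lower, with 0 to 2 core genes higher and 1 to 8 lower, 0 to 2 regulatory genes higher and 2 to 9 lower, and a core median from -0.26 to -0.061. The difference between the lines passed in 3 to 21 members. Where 1 library was left, it was assumed to vary like the other groups. Each of these fits also has fewer libraries, and the cause of these changes was not tested. With a replicate block, 11 members rose and 4 fell in the H2A.Z line, 3 rose and 8 fell in the Mll2 line, and 12 differed between the lines. The block moved no count by over 1.5 times. Depth limits most the 5 members with at most 61 counts in every library, Psma8, Psmb8, Psmb9, Psmb10 and Psme1.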
